A study of Rattus norvegicus with 4 samples.

Results

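The transcription regulators of myelination around Egr2 are described here in rat Schwann cells (SCs) in culture. SCs are the glia that wrap peripheral axons in myelin. The members were taken by name as 10 rows of a table of 17949 genes: Egr2, Egr1, Egr3, Nab1, Nab2, Pou3f1, Pou3f2, Zeb2, Yy1 and Nfatc4. All 10 passed the filter on low counts, as did 12446 genes in all. The SCs came from rat sciatic nerve and grew in 10% serum with 4 μM forskolin, which raises cAMP, and 5 ng/ml heregulin-β1, a ligand of the ErbB receptors. They were infected for 48 h, at 2 viral units per cell, either with a control lentivirus carrying GFP (Lenti-GFP, n = 2) or with a lentivirus that expresses the Egr2 promoter antisense RNA, the Egr2-AS (Lenti-AS, n = 2). The Egr2-AS vector carries a red reporter instead of GFP, so antisense RNA and reporter cannot be told apart by design. All 4 samples were infected and saw the same forskolin and heregulin. The labels call the samples biological replicates but do not say whether they came from separate cultures or animals, so p-values measure the spread between these samples.

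Egr2, also called Krox20, is a zinc finger transcription factor that SCs need in order to turn on myelin genes and lipid synthesis. Upstream, the POU factors Pou3f1 and Pou3f2 act with Sox10 on an Egr2 enhancer, and Nfatc4 is the calcineurin-dependent factor that cooperates with Sox10 there. Nab1 and Nab2 bind Egr proteins and recruit corepressors, and Egr1 and Egr3 are Egr family members that growth factors induce rapidly. Zeb2 lets SCs myelinate by repressing inhibitors of myelination, while Yy1 is a zinc finger protein through which neuregulin signals reach the Egr2 gene.

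The antisense RNA is complementary to the Egr2 promoter, so the start of this gene is shown beside those of the family member Egr1 and of the corepressor gene Nab1. The windows run from 250 bases before to 50 bases after the gene's start (RefSeq, GRCr8 build, which is not the build the reads were aligned to). Egr2 lies at chr20:21054392-21054691 on the minus strand, Egr1 at chr18:26736828-26737127 on the plus strand and Nab1 at chr9:56545392-56545691 on the plus strand, each printed along its own gene, 5′ to 3′. Capitals mark matches on either strand to the CArG box (the motif of serum response factor), to TGACG (the core of the cAMP response element, CGTCA on the other strand) and to GCGNGGGCG (the motif of the Egr proteins).
Egr2: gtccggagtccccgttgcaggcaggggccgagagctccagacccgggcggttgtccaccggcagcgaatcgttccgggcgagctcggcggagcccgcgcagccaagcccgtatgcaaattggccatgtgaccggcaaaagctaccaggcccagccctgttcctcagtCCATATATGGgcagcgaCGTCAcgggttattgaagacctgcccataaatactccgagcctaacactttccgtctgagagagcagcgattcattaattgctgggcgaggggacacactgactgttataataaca
Egr1: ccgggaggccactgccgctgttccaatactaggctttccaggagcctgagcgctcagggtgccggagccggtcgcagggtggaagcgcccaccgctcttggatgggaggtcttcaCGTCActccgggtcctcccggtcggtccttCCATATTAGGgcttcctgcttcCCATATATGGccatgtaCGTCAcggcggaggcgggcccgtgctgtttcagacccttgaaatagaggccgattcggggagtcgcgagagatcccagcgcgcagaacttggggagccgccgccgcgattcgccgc
Nab1: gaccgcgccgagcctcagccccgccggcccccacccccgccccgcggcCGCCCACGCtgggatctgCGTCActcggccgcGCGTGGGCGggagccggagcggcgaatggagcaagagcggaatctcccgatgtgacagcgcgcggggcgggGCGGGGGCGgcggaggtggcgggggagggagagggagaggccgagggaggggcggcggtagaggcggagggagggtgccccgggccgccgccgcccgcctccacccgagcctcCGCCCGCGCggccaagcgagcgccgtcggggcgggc

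Egr2 and Egr1 held the same CArG box, CCATATATGG, at the same place, from -83 to -74 counted from the gene's start, and a TGACG match at the same place, from -66 to -62. Egr1 held a further CArG box from -105 to -96 and a further TGACG match from -135 to -131. The Nab1 window was 81.7% G and C, where the median window was 51.7%. Of all 33469 RefSeq windows of this length, 1.64% held a CArG box, 21.2% held TGACG and 4.98% held GCGNGGGCG. The Nab1 window held 4 GCGNGGGCG matches and the Pou3f2 window 1, while the windows of Egr2, Egr1, Nab2, Zeb2 and Yy1 held no GCGNGGGCG match. TGACG was also present in the Nab1, Zeb2 and Yy1 windows. Windows were found for 7 of the 10 regulators and not for Egr3, Pou3f1 or Nfatc4. A match is a description of these letters, not evidence of binding.

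Total counts per sample were between 74024323 and 96185890, which gave each regulator at least 565 counts in every sample. Levels are given as CPM, which are counts relative to the TMM-scaled size of the library, and they are compared between samples of a gene. The table gives no transcript lengths, so the gene of each list with the highest mean CPM over the 4 samples is named only as an example with many reads, not as the one with the most transcripts. The Lenti-AS samples lay further apart than the Lenti-GFP samples. Gaps above 2-fold between the Lenti-AS samples were seen for 188, and between the Lenti-GFP samples for 9, of 10251 genes whose mean CPM reached 1. Lenti-AS 2 also carried globin transcripts, 0.311% of its counts against at most 0.000675% in the other samples. The listed SC markers summed to 6640 and 6590 CPM with Lenti-GFP and to 8420 and 7170 CPM with Lenti-AS. Among them, S100b (2030 to 2360 CPM) and Erbb3 (448 to 562 CPM) were abundant in every sample. Cdh19, on the same list, stood at 315 and 330 CPM with Lenti-GFP against 281 and 259 CPM with Lenti-AS. Of the other cell types looked for, the summed macrophage markers lay between 3.40 and 4.47 CPM, the endothelial markers between 15.9 and 21.3 CPM, most of it Tek, and the neuronal markers between 244 and 323 CPM, most of it the neurofilament genes Nefl and Nefm. Nefl was the only gene on these marker lists that was called, and it was lower with Lenti-AS (log2 fold change -0.46, adjusted p = 0.0303). The fibroblast markers Dcn, Lum and Thy1 were at most 0.0321 CPM and Cd34 at most 0.0342 CPM. Pdgfra, Pi16 and Fbln1 lay between 3.09 and 6.77 CPM, and the collagen genes on that list were high. The list summed to 4270 and 3820 CPM with Lenti-GFP and to 4680 and 2830 CPM with Lenti-AS. In bulk RNA, fewer cells that express a gene and less of its RNA per cell cannot be told apart.

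Of the 10 regulators, 1 rose in Lenti-AS SCs and none fell. This was Pou3f1. A call needed a Benjamini-Hochberg adjusted p below 0.05 over all tested genes, by the quasi-likelihood test of edgeR, together with a fitted fold of 1.3 or more. These cut-offs were met by 1.98% of the 12446 genes. Unadjusted p-values under 0.05 were found for 2 of the 10, Pou3f1 and Egr2, against 21.8% of all genes. DESeq2 called the same regulator alone, where it called 5.04% of all genes. The groups did not overlap for 3 of the 10, against 54.9% of all genes: both Lenti-AS samples lay above both Lenti-GFP samples for Pou3f1 and Egr2 (27.7% of all genes) and below them for Nab1 (27.2% of all genes). With 2 samples against 2, an exact permutation test (two-sided) cannot go below p = 0.333.

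**Figure D1:**
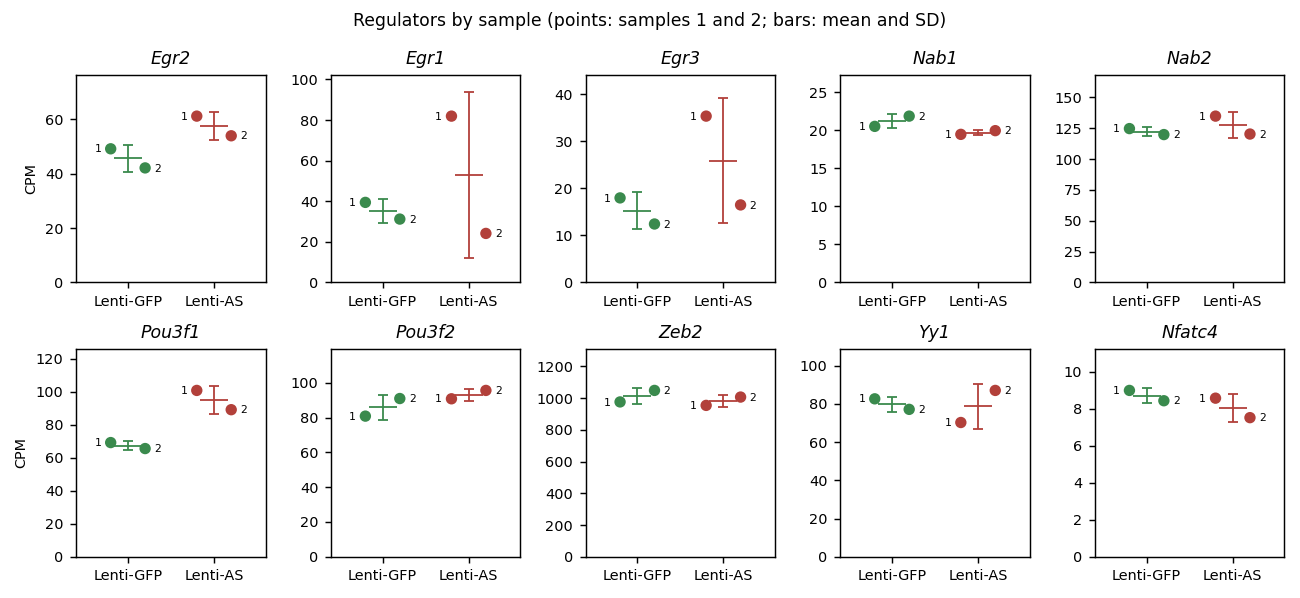
Level of each of the 10 regulators in CPM (y axis, from 0) by group (x axis), where points are the samples with their replicate numbers and the bars are the mean and SD. Pou3f1 and Egr2 lie higher in both Lenti-AS samples, and Egr1 is at 81.9 CPM in Lenti-AS 1 and 24.2 CPM in Lenti-AS 2.

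Egr2 was not lower in Lenti-AS SCs. It stood at 49.2 and 42.1 CPM with Lenti-GFP against 61.2 and 54.0 CPM with Lenti-AS, with 4591, 3995, 5364 and 4057 counts. Both Lenti-AS samples were the higher ones, and the closest pair across the groups lay 4.79 CPM apart. The samples differed 1.17-fold within Lenti-GFP and 1.13-fold within Lenti-AS. Means were 45.7 ± 4.97 CPM with Lenti-GFP and 57.6 ± 5.12 CPM with Lenti-AS (SD, n = 2 each). The log2 fold change was 0.33 (standard error 0.11, 95% interval 0.08 to 0.59), or 1.26-fold, and the adjusted p of 0.152 by edgeR missed the threshold. DESeq2 gave an adjusted p of 0.0336 for a log2 fold change of 0.33, which lies below the fold cut-off. Leaving out 1 sample kept the sign, with log2 fold changes from 0.23 without Lenti-GFP 2 to 0.45 without Lenti-GFP 1, and it was called (0.42, adjusted p = 6.19e-05) without Lenti-AS 2. That fit has a single Lenti-AS sample, assumed to vary as little as the Lenti-GFP samples, and it called 1515 genes. The strand setting of the counting is not given in the sources used here, so sense reads of Egr2 and any antisense reads over its exons cannot be told apart. The Egr2-AS itself was not analysed here.

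The genes whose values over the 4 samples ran most closely with those of Egr2 were Dock6, Mon1b and Foxj2, by Euclidean distance between centred log2 CPM values (0.0245, 0.0344 and 0.0345). Dock6, an exchange factor for small GTPases, had 16.6, 14.4, 20.6 and 18.1 CPM in Lenti-GFP 1 and 2 and Lenti-AS 1 and 2. Within a distance of 0.2 lay 620 genes, so over 4 samples such likeness is common.

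Pou3f1, also known as Oct6 or SCIP, marks the promyelinating stage and responds to cAMP. It stood at 69.2 and 65.6 CPM with Lenti-GFP against 101 and 89.2 CPM with Lenti-AS, from 6218 to 8839 counts. The closest pair across the groups lay 19.9 CPM apart, further than the samples within either group. Means were 67.4 ± 2.57 CPM with Lenti-GFP and 95.01 ± 8.26 CPM with Lenti-AS (SD, n = 2 each). The log2 fold change was 0.50 (standard error 0.08, 95% interval 0.29 to 0.70), a 1.41-fold rise with an adjusted p of 0.0481 by edgeR. Leaving out either Lenti-GFP sample ended the call: without Lenti-GFP 1 the adjusted p was 0.368 (log2 fold change 0.54) and without Lenti-GFP 2 it was 0.515 (log2 fold change 0.46), when 1 gene in all was called. A fit with the replicate number as a block also ended the call (edgeR adjusted p = 0.0877, log2 fold change 0.49). With DESeq2 the adjusted p was 6.06e-06.

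Pou3f2, or Brn2, overlaps with Pou3f1 in function in SCs. It stood at 80.9 and 91.0 CPM with Lenti-GFP against 90.9 and 95.7 CPM with Lenti-AS, so the groups overlapped. The log2 fold change was 0.12 (95% interval -0.08 to 0.31, adjusted p = 0.422). This interval leaves out the fitted 0.50 of Pou3f1 but overlaps the 95% interval of Pou3f1, 0.29 to 0.70. The difference between the changes of these paralogs was not tested. Pou3f3 had 78 to 176 counts per sample and Pou3f4 at most 4 counts.

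Egr1 and Egr3 went apart between the Lenti-AS samples. Egr1 stood at 39.4 and 31.2 CPM with Lenti-GFP, 81.9 CPM in Lenti-AS 1 and 24.2 CPM in Lenti-AS 2, the highest and the lowest of the 4 samples, and from 1816 to 7181 counts. Means were 35.3 ± 5.82 CPM with Lenti-GFP and 53.0 ± 40.9 CPM with Lenti-AS (SD, n = 2 each). The fitted log2 fold change of 0.59 had a 95% interval from -0.67 to 1.84 (adjusted p = 0.536), which spans 0. It was 1.21 without Lenti-AS 2 (adjusted p = 2.92e-13) and -0.55 without Lenti-AS 1 (adjusted p = 0.000158), fits in which the lone Lenti-AS sample is assumed to vary as little as the Lenti-GFP samples. Egr1 was 3.39-fold higher in Lenti-AS 1 than in Lenti-AS 2, a gap reached by 40 of those 10251 genes (0.390%).

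Egr3 stood at 18.0 and 12.4 CPM with Lenti-GFP, 35.4 CPM in Lenti-AS 1 and 16.5 CPM in Lenti-AS 2. Lenti-AS 1 was again the highest sample, while Lenti-AS 2 lay between the Lenti-GFP samples. The log2 fold change was 0.77 (95% interval -0.11 to 1.65, adjusted p = 0.274), and it was 1.22 without Lenti-AS 2 (adjusted p = 6.57e-10) and 0.12 without Lenti-AS 1 (adjusted p = 0.594). The gap between the Lenti-AS samples was 2.15-fold and was reached by 1.45% of the 10251 genes, against 1.13-fold and 32.2% for Egr2. Egr4, the remaining family member, had 8, 8, 22 and 4 counts in Lenti-GFP 1 and 2 and Lenti-AS 1 and 2, and it did not pass the filter. For each Egr2 count there were 0.802 and 0.741 Egr1 counts in the Lenti-GFP samples, 1.34 in Lenti-AS 1 and 0.448 in Lenti-AS 2.

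**Figure D2:**
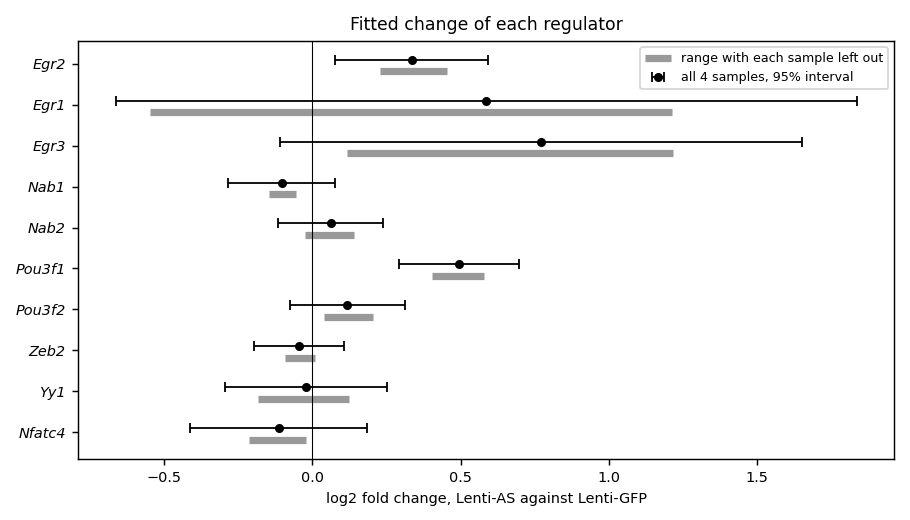
Fitted log2 fold change of Lenti-AS against Lenti-GFP (x axis) for each regulator (y axis), where black points are the fit of all 4 samples with 95% intervals and grey bars span the fits that each left out 1 sample. The intervals of Pou3f1 and Egr2 lie above 0, and the grey bar of Egr1 runs from -0.55 to 1.21.

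Growth factors induce Egr1 together with other immediate early genes, and 25 of these were listed by hand. Between the Lenti-AS samples these genes were closer than Egr1 and Egr3, as 9 of the 25 were higher in Lenti-AS 1 than in Lenti-AS 2, the median log2 gap was -0.04 and 0 of 25 differed more than 2-fold. Fos, part of the AP-1 factor, had 816 CPM in Lenti-AS 1 and 753 CPM in Lenti-AS 2, and the orphan receptor gene Nr4a1 had 240 and 195 CPM. Its relative Nr4a2 went the other way, as most of the list did, with 54.1 CPM in Lenti-AS 1 and 86.0 CPM in Lenti-AS 2. These were named after their values were seen. Between the groups, 1 of the 25 fell and 0 rose by edgeR (1.98% of all genes), with a median log2 fold change of 0.02 against 0.01 over all genes tested, and 8 had an unadjusted p under 0.05 (21.8% of all genes). DESeq2 called 4 lower and 0 higher (5.04% of all genes). The gene that fell was Maff, a small MAF transcription factor, from 64.4 and 60.6 CPM with Lenti-GFP to 45.0 and 44.0 CPM with Lenti-AS (adjusted p = 0.0389, log2 fold change -0.49 with a standard error of 0.07). The gene of the list with the highest mean CPM, Jun, stood at 1269 and 1139 CPM with Lenti-GFP against 895 and 1084 CPM with Lenti-AS (log2 fold change -0.28, adjusted p = 0.198).

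Some genes outside the immediate early list, named after their values were seen, were also higher in Lenti-AS 1 than in Lenti-AS 2. Sox10, the factor that defines the SC lineage, stood at 77.1 and 72.6 CPM with Lenti-GFP, 163 CPM in Lenti-AS 1 and 61.2 CPM in Lenti-AS 2, again the highest and the lowest sample. The collagen gene Col1a1 stood at 841 and 721 CPM with Lenti-GFP, 2130 CPM in Lenti-AS 1 and 290 CPM in Lenti-AS 2. The part of any difference between the libraries in the Egr1 and Egr3 results was not tested.

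**Figure D3:**
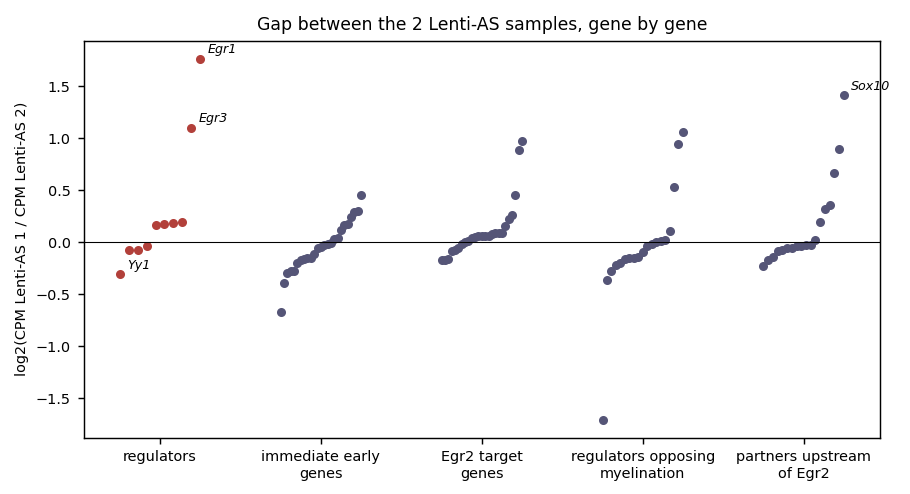
Log2 ratio of the CPM in Lenti-AS 1 to that in Lenti-AS 2 (y axis) for each tested gene of 5 gene groups (x axis), where a point is a gene and genes are ordered within a group. Egr1 (1.76) and Egr3 (1.10) lie above all 25 immediate early genes.

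Nab2 and Nab1, the corepressor genes, were not called, and the Lenti-AS samples differed 1.12-fold for Nab2 and 1.03-fold for Nab1. Nab2 stood at 125 and 120 CPM with Lenti-GFP against 135 and 120 CPM with Lenti-AS, with overlapping groups and a log2 fold change of 0.06 (95% interval -0.12 to 0.24, adjusted p = 0.657). Nab1 stood at 20.5 and 21.8 CPM with Lenti-GFP against 19.5 and 19.9 CPM with Lenti-AS. Both Lenti-AS samples were the lower ones, by 0.562 CPM between the nearest samples, and the log2 fold change of -0.10 (95% interval -0.28 to 0.08) did not pass the test (adjusted p = 0.441). Per count of Egr1, Egr2 and Egr3 together there were 1.36 and 1.65 counts of Nab1 and Nab2 together in the Lenti-GFP samples, 0.864 in Lenti-AS 1 and 1.48 in Lenti-AS 2. NAB proteins recruit the NuRD corepressor. Of its 14 listed subunits 11 were tested, as Chd3, Chd4 and Mta3 had no row in the table of counts. By edgeR 0 of the 11 were called (1.98% of all genes), with 4 at an unadjusted p under 0.05 (21.8% of all genes) and a median log2 fold change of -0.01. DESeq2 called 1 of them higher (5.04% of all genes). The subunit gene with the highest mean CPM, Rbbp7, which encodes a histone-binding protein, stood at 776 and 800 CPM with Lenti-GFP against 845 and 802 CPM with Lenti-AS.

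Zeb2 stood at 976 and 1049 CPM with Lenti-GFP against 954 and 1007 CPM with Lenti-AS, with overlapping groups. The log2 fold change was -0.05 with a 95% interval from -0.20 to 0.11 (adjusted p = 0.698), and it was 0.0072 without Lenti-GFP 2. Zeb2os, a gene at the Zeb2 locus that was named after its values were seen, had 69.6 CPM in each Lenti-GFP sample and 78.4 and 75.2 CPM with Lenti-AS (log2 fold change 0.14, adjusted p = 0.261), and its reads may not be separable from those of Zeb2 without strand. Zeb1, the paralog of Zeb2, stood at 97.3 and 102 CPM with Lenti-GFP against 103 and 110 CPM with Lenti-AS (log2 fold change 0.09, adjusted p = 0.444). Of the 8 tested paralogs of the regulators, 0 were called by edgeR (1.98% of all genes) or DESeq2 (5.04%) and 2 had an unadjusted p under 0.05 (21.8%), with a median log2 fold change of 0.16.

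Zeb2 and Egr2 restrain genes that oppose myelination, of which 19 were listed and tested. By edgeR 0 of these were called (1.98% of all genes), 6 had an unadjusted p under 0.05 (21.8% of all genes) and the median log2 fold change was 0.16, while DESeq2 called 2 higher and 0 lower (5.04% of all genes). Groups did not overlap for 13 of the 19 (54.9% of all genes), in 10 with Lenti-AS above (27.7% of all genes). The highest mean CPM was that of the endothelin receptor gene Ednrb, with 1741 and 1867 CPM in Lenti-GFP and 1700 and 1740 CPM in Lenti-AS (log2 fold change -0.07, adjusted p = 0.529).

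Yy1 stood at 82.7 and 77.2 CPM with Lenti-GFP against 70.3 and 87.1 CPM with Lenti-AS. The Lenti-AS samples were the lowest and the highest of the 4, in the reverse order of Egr1, and the log2 fold change was -0.02 (95% interval -0.30 to 0.25, adjusted p = 0.926), with a sign that turned to 0.0096 when library totals replaced the TMM factors. Yy1 protein is regulated by phosphorylation, which these counts do not measure. Among 21 tested genes of complexes that work with Yy1, such as INO80 and Polycomb, 0 were called by edgeR (1.98% of all genes) or DESeq2 (5.04%), 4 had an unadjusted p under 0.05 (21.8%) and the median log2 fold change was -0.01. The chromatin organiser gene Ctcf, which had the highest mean CPM of them, stood at 119 and 128 CPM with Lenti-GFP against 126 and 134 CPM with Lenti-AS.

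Nfatc4 was the regulator with the fewest counts, 565 to 839 per sample. It stood at 8.99 and 8.43 CPM with Lenti-GFP against 8.57 and 7.52 CPM with Lenti-AS, with overlapping groups, and the log2 fold change was -0.11 (95% interval -0.41 to 0.18, adjusted p = 0.615). The calcium and calcineurin list, which holds the phosphatase that activates NFAT proteins and its regulators, had 26 tested genes, of which 1 fell and 0 rose (1.98% of all genes called). An unadjusted p under 0.05 was found for 7 of the 26, near the share of all genes (21.8%), and the median log2 fold change was 0.00 to 2 decimals. The gene that fell was Akap5, which encodes an anchoring protein for calcineurin and kinases, from 32.7 and 36.5 CPM with Lenti-GFP to 20.7 and 22.2 CPM with Lenti-AS (adjusted p = 0.0252, log2 fold change -0.69 with a standard error of 0.08). Rcan1, which encodes a feedback inhibitor of calcineurin and was named after its values were seen, passed the adjusted p (0.0389) but not the fold cut-off (log2 fold change -0.37). DESeq2 called 1 gene of the list higher and 1 lower (5.04% of all genes).

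Of the partners that act upstream of Egr2, such as Sox10, chromatin remodelers and histone deacetylases, 18 were tested. By edgeR 0 passed both cut-offs (1.98% of all genes), 8 had an unadjusted p under 0.05 (21.8% of all genes) and the median log2 fold change was 0.12. DESeq2 called 1 higher, a share near that of all genes (5.04%). Smarca4, the ATPase of the BAF remodeler, named after its values were seen, stood at 181 and 176 CPM with Lenti-GFP against 220 and 234 CPM with Lenti-AS and passed the adjusted p (0.0464) but not the fold cut-off (log2 fold change 0.35). Ctnnb1, the β-catenin gene, with the highest mean CPM of the list, stood at 1567 and 1594 CPM with Lenti-GFP against 1295 and 1329 CPM with Lenti-AS (log2 fold change -0.27, adjusted p = 0.0642).

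Downstream of Egr2, 25 genes of myelin and of lipid synthesis were listed and all were tested. The list was chosen with earlier results of these data known, so the shares given here only describe it, and no set test was run. By edgeR 5 of them rose in Lenti-AS SCs and 0 fell, where 1.98% of all genes were called. Fitted levels favoured Lenti-AS for 20 of the 25 (51.3% of all genes), and the median log2 fold change was 0.17 against 0.01 over all genes tested. An unadjusted p under 0.05, in either direction, was found for 16 of the 25 (21.8% of all genes). Those that rose were Gjb1, the gap junction protein connexin 32, Scd, a fatty acid desaturase, Mal, a raft protein of myelin, Cdh1, the E-cadherin of noncompact myelin, and Mbp, which compacts the myelin membrane. Mal stood at 105 and 103 CPM with Lenti-GFP against 166 and 156 CPM with Lenti-AS (adjusted p = 0.0191, log2 fold change 0.63 with a standard error of 0.06). Gjb1 stood at 20.4 and 19.1 CPM with Lenti-GFP against 32.4 and 31.1 CPM with Lenti-AS (log2 fold change 0.68, adjusted p = 0.0218). For both genes the samples of a group lay closer together than the groups did.

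The log2 fold change was 0.67 for Scd (42.2 and 43.0 CPM with Lenti-GFP, 73.7 and 61.5 CPM in Lenti-AS, adjusted p = 0.0417). For Cdh1 it was 0.57 (19.1 and 19.0 CPM against 26.5 and 29.9 CPM, adjusted p = 0.0389). For Mbp it was 0.47 (29.6 and 32.1 CPM against 42.0 and 43.6 CPM, adjusted p = 0.0428). The 20 that were not called include Pmp22, a compact myelin protein gene with the highest CPM of the list when averaged over the 4 samples (2871 and 2982 CPM with Lenti-GFP, 2518 and 2675 CPM in Lenti-AS, log2 fold change -0.17, adjusted p = 0.176), and Mag, an adhesion molecule facing the axon and the lowest of the 25 in log2 fold change (-0.35, adjusted p = 0.0594). DESeq2 called 8 of the 25 higher and 0 lower, where it called 5.04% of all genes in either direction. Mag passed the adjusted p of DESeq2 (0.000376) but not the fold cut-off (log2 fold change -0.36). Both Lenti-AS samples lay above both Lenti-GFP samples for 13 of the 25 (27.7% of all genes) and below them for 4 (27.2% of all genes). The edgeR count depended on the libraries and on the model. It changed when any 1 sample was left out, in fits that leave a single sample in a group. A fit with the replicate number as a block called 0 of the 25. These alternatives were chosen after the data had been seen. All 7 called genes of the lists, Maff and Akap5 included, lost their calls without either Lenti-GFP sample (adjusted p up to 0.439, for Cdh1 without Lenti-GFP 2). Their log2 fold changes kept their sign, for example 0.64 and 0.62 for Mal, 0.74 and 0.64 for Gjb1 and 0.66 and 0.68 for Scd without Lenti-GFP 1 and without Lenti-GFP 2.

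**Figure D4:**
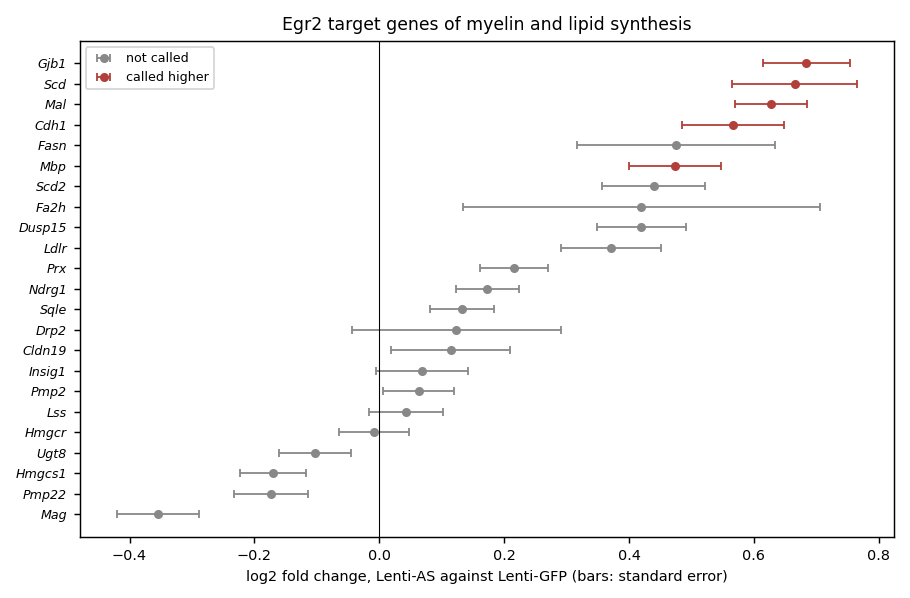
Log2 fold change of Lenti-AS against Lenti-GFP (x axis) with its standard error for 23 of the 25 listed Egr2 target genes (y axis), in red where called higher and in grey where not called. The 5 called genes lie between 0.47 and 0.68, and Mag is lowest at -0.35.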

How the data were processed

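RNA-seq of 4 samples of rat SCs was analysed, 2 Lenti-GFP and 2 Lenti-AS. Paired-end reads of 50 bp were aligned to rn6 by the authors, who counted them over RefSeq exons with featureCounts. For the aligner, the paper's methods name hisat2 and the submitters' processing notes name GSNAP. The deposited values are raw gene-level counts, neither normalized nor filtered, and 1 row that repeats the header was dropped. Strand setting and versions are not given in the sources used here.

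A single fit covered every gene that reached 10 counts in 2 or more samples, with edgeR 4.0.16 (R 4.3.3; TMM, glmQLFit, glmQLFTest, no replicate term), with Benjamini-Hochberg adjustment over all of them and the study's cut-offs (adjusted p under 0.05, 1.3-fold). Standard errors came from the F statistic. Alternatives were DESeq2 1.42.0, limma-voom (limma 3.58.1), other scalings and filters, a replicate block and leaving out each sample. The tests were tried on simulated counts. The regulators and the 8 gene lists were chosen with earlier results of these data known. All regulators are named, and from each list the called genes and the gene with the highest mean CPM, and others only as said. Some genes are not reported here. Promoter windows are RefSeq's (GRCr8).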

Additional observations from a re-analysis of the deposited data

How the results depend on the processing

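Against 246 genes called, DESeq2 called 627 (488 higher and 139 lower, against 163 and 83) and gave no adjusted p for 2413. With the replicate block 17 were called (3 higher and 14 lower), with 0 regulators and 0 of the 25 Egr2 target genes among them. Pou3f1 then had an adjusted p of 0.0877 at a log2 fold change of 0.49. Deviations of same-numbered samples were uncorrelated over the tested genes (-0.0073). This cannot show whether same-numbered samples shared a culture or an infection, which the labels do not state. Leaving out 1 sample gave 1 to 1515 genes called (0 to 1260 higher, 1 to 278 lower) and 0 to 4 regulators: Pou3f1 and Egr1 (lower) without Lenti-AS 1, Egr2, Egr1, Egr3 and Pou3f1 without Lenti-AS 2, and 0 without either Lenti-GFP sample. Leaving out 1 sample turned the sign for Egr1 (-0.55 to 1.21), Nab2 (-0.0241 to 0.14), Zeb2 (-0.0938 to 0.0072) and Yy1 (-0.19 to 0.12), and library totals turned it for Yy1 (0.0096). The other scalings and filters, limma-voom, the newer quasi-likelihood form and the fit without globin genes called 1 regulator each. The cause of these differences was not tested. With 2 samples a group, no exact permutation test of a single gene could go below 0.333.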
